A study of Mus musculus with 20 samples.

Results

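The 10 genes described here are the core of the transforming growth factor β (TGF-β) system: the ligands Tgfb1, Tgfb2 and Tgfb3, the receptors Tgfbr1, Tgfbr2 and Tgfbr3, and the latent TGF-β binding proteins Ltbp1, Ltbp2, Ltbp3 and Ltbp4. They were chosen by symbol for these roles out of 47069 genes in the count table, with earlier results of these data known. All 10 passed the filter on low counts that left 17622 genes for testing.

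TGF-β is made as a pro-protein that stays non-covalently bound to its own pro-peptide, and this latent complex is in turn tethered to the extracellular matrix by a latent binding protein. Integrins, thrombospondin and proteases release the active ligand, which binds the type II receptor Tgfbr2. Tgfbr2 then recruits and phosphorylates the type I receptor Tgfbr1, which signals through Smad2 and Smad3. Tgfbr3, also called betaglycan, is a co-receptor that presents ligand and can also be shed to bind it away from the cell. In the kidney the pathway is known for driving matrix deposition by fibroblasts and the loss of differentiated tubule cells.

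Total RNA of whole kidneys from 20 male mice of the 129SJ x C57Bl/6J background was sequenced at 15 weeks of age. Col4a3-/- mice lack the α3 chain of type IV collagen in the glomerular basement membrane and are a model of Alport syndrome. The 4 groups were 5 untreated wild-type mice (WT), 6 Col4a3-/- mice given PBS (Veh), 6 Col4a3-/- mice given the miR-21 inhibitor lademirsen at 50 mg/kg weekly by subcutaneous injection (Anti-miR-21) and 3 Col4a3-/- mice given the angiotensin-converting enzyme inhibitor ramipril in drinking water (ACEi). By the study's methods the ACEi mice were also injected with PBS weekly. Treatment began at 5 weeks of age. The ramipril dose is 11 mg/L in the sample labels and 4 mg/kg in the deposited library table. Because WT mice received no injection, genotype and PBS injection cannot be told apart in Veh against WT.

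The estimated counts summed to between 28474301 and 29479629 per mouse, and 13 libraries were run on one flow cell and 7 on another. The larger and the smaller flow cell held 3 and 2 WT, 4 and 2 Veh, 5 and 1 Anti-miR-21 and 1 and 2 ACEi libraries. The 2 treatment groups were thus unevenly spread over the flow cells. Col4a3 itself lay between 194 and 238 CPM (counts scaled to a common library size) in WT and between 27.9 and 74.9 in all 15 Col4a3-/- mice. The sample labels name kidney as the tissue, although their extraction text speaks of adipose tissue. Markers of proximal tubule (summed CPM between 1529 and 14039.6), podocytes (195 to 486) and the thick ascending limb (2029 to 6557) were present in every mouse. The summed adipocyte markers stood apart in 4 libraries, at 81.0, 113 and 78.5 CPM in Veh mice 1, 2 and 3 and at 92.6 CPM in Anti-miR-21 mouse 4, against 0.361 to 19.7 CPM in the other 16. Without these 4 libraries the number of the 10 genes called was 9 in Veh against WT, 9 in Anti-miR-21 against Veh, 7 in ACEi against Veh and 0 between the treatments. With all 20 mice it was 9, 9, 8 and 0, where 73.0%, 59.2%, 40.1% and 0.584% of all tested genes were called. The shares of all tested genes without the 4 libraries are not given here. CPM here are counts scaled by edgeR's TMM factors, which assume that most genes do not differ. Scaling by library totals alone moved the median log2 difference of all genes between Veh and WT from 0.07 to 0.65. Directions below are therefore relative to the TMM scale. Values on the other scale are given where they changed a call among the 10 genes.

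miR-21a-5p is the target of lademirsen, and its mature sequence is shown with the seed, bases 2 to 8, in capitals (RefSeq, GRCm38.p6, chr11:86584120-86584141, minus strand). The 3′ UTR of 3 of the 10 genes holds the 7 bases ATAAGCT that pair with this seed, and those sites follow, 5′ to 3′ on the transcript with the match in capitals (GENCODE M21, GRCm38). The Ltbp2 site is at chr12:84783451-84783457 on the minus strand, the Tgfbr1 site at chr4:47412735-47412741 on the plus strand and the Tgfbr2 site at chr9:116090136-116090142 on the minus strand.
miR-21a-5p: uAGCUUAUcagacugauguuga
Ltbp2 site: agtgaggcttgtcATAAGCTctggcgcc
Tgfbr1 site: atcacctgcttaaATAAGCTcttgtgct
Tgfbr2 site: agactgtcatggcATAAGCTgtgctagc

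Among 20962 protein-coding genes with an annotated 3′ UTR, 7.19% hold this match in their longest 3′ UTR. The match lies 793 bases after the stop codon in Ltbp2, 1958 in Tgfbr1 and 236 in Tgfbr2. The 3′ UTRs of Tgfbr2 (6085 bases) and Tgfbr1 (4154 bases) are the longest of the 10 genes, whose median is 1126 bases against 962 over all genes. No match was found in the 3′ UTRs of the 3 ligands, Tgfbr3, Ltbp1, Ltbp3 or Ltbp4. A match is a description of the sequence, and no binding was measured.

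The windows of 250 bases before the annotated start of Tgfb1, Tgfb2 and Ltbp2 are shown because these genes are the most abundant ligand and the 2 genes with the largest fold changes in Veh against WT. Capitals mark CAGAC or GTCTG, the short element bound by Smad3, searched on both strands; the AP-1 element TGANTCA was searched in the same way and was found in none of the 8 genes with a window. The windows (RefSeq, GRCm38.p6) are chr7:25686752-25687001 on the plus strand for Tgfb1, chr1:186705990-186706239 on the minus strand for Tgfb2 and chr12:84876492-84876741 on the minus strand for Ltbp2.
Tgfb1 promoter: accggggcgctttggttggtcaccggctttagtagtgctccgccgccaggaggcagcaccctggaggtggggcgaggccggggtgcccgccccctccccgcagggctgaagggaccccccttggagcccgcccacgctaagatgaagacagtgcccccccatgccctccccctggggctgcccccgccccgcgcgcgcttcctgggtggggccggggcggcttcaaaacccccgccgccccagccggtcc
Tgfb2 promoter: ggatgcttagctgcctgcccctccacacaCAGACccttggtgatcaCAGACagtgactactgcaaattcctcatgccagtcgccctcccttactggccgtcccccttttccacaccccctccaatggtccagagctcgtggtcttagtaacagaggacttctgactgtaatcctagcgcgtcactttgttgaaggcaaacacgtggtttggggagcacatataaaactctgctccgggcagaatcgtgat
Ltbp2 promoter: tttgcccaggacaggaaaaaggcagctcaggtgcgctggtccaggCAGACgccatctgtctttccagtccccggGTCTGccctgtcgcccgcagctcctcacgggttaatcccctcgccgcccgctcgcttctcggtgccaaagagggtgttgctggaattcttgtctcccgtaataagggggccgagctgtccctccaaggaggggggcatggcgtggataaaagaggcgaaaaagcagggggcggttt

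The 8 genes have 12 windows, since some have more than 1 start. The Smad element was present in 7 of these 12 windows (58.3%), from Tgfb2, Tgfbr1, Tgfbr2, Ltbp1, Ltbp2 and Ltbp3, and 42.2% of 32851 windows of the same length hold it. AP-1 was present in 6.75% of all windows. G and C made up 75.2% of the Tgfb1 window, 53.6% of the Tgfb2 window and 61.6% of the Ltbp2 window, against a median of 52.4% over all windows.

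On the length-adjusted FPKM scale, which allows genes to be compared with each other, the order of levels in WT kidney was Tgfbr2, Ltbp4, Tgfbr1, Ltbp3, Tgfb1, Tgfbr3, Ltbp1, Tgfb3, Tgfb2 and Ltbp2. Tgfbr2 had 15.0 ± 2.30 FPKM (SD, n = 5) and Ltbp4 10.8 ± 3.15. Tgfbr1, at 6.999 ± 0.384, Ltbp3, at 6.15 ± 1.02, and Tgfb1, at 6.09 ± 1.70, followed and overlapped each other. Tgfbr3 (3.24 ± 0.564) and Ltbp1 (1.78 ± 0.780) were lower, and Tgfb3 (0.746 ± 0.167), Tgfb2 (0.209 ± 0.0859) and Ltbp2 (0.112 ± 0.0246) were the lowest. The ranges of neighbours in this order overlapped at every step except between Tgfb3 and Tgfb2.

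In Veh kidney the order on the FPKM scale was Tgfb1, Tgfbr2, Ltbp2, Ltbp3, Ltbp4, Tgfbr1, Tgfb3, Tgfbr3, Ltbp1 and Tgfb2. Tgfb1, the most widely expressed ligand, stood at 62.2 ± 7.55 FPKM (SD, n = 6) and Ltbp2 at 42.4 ± 12.9. The ranges of neighbours were apart at 2 steps, between Tgfbr1 (24.1 ± 2.26) and Tgfb3 (6.97 ± 1.31) and between Ltbp1 (5.24 ± 1.14) and Tgfb2 (2.77 ± 0.739). FPKM were deposited per library total, so these levels serve to compare genes within a group, and differences between groups are given on the CPM scale below. The deposited FPKM entries of Tgfb3, Tgfbr3, Ltbp2 and Ltbp3 are marked as confounded with other genes.

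The first comparison, Veh against WT, shows what differed in untreated disease. Of the 10 genes, 9 rose and 0 fell, against a background in which 39.0% of all tested genes were called higher and 34.0% lower. With library totals alone the background was 66.0% higher and 15.2% lower, and all 10 genes were called higher. For those 9 genes every Veh mouse lay above every WT mouse, which held for 28.8% of all tested genes. The median log2 fold change over the 10 genes was 1.53, and over all tested genes it was 0.07. A gene was called at an adjusted p under 0.05 in edgeR's quasi-likelihood test. In whole-kidney RNA a change in the number of cells that make a transcript and a change in its level per cell cannot be told apart.

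**Figure D1:**
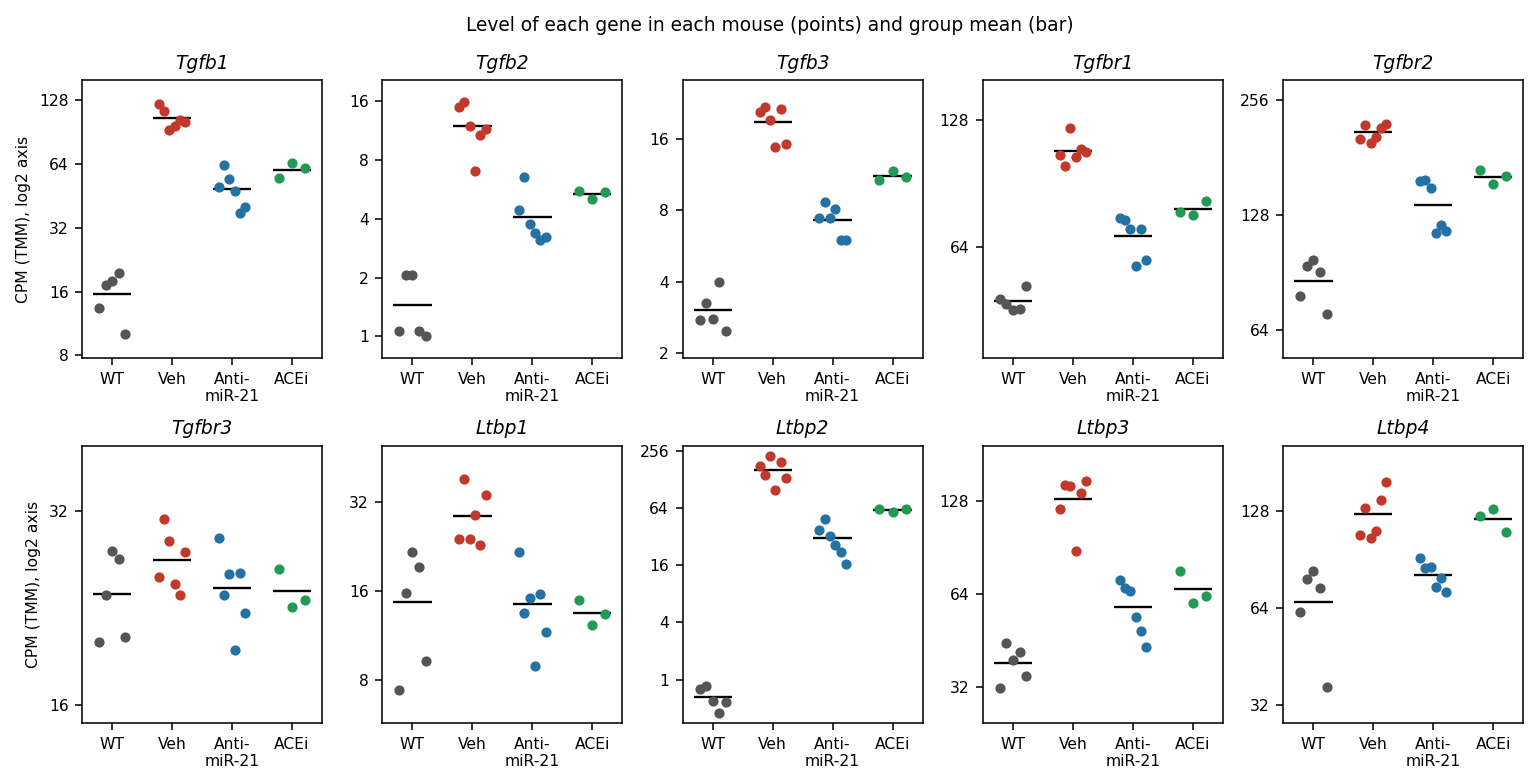
Level of each of the 10 genes in every mouse, as TMM-scaled CPM on a log2 axis that differs between panels; points are mice and the bar is the group mean (WT n = 5, Veh n = 6, Anti-miR-21 n = 6, ACEi n = 3). Veh lies above WT without overlap in all panels but Tgfbr3, and Ltbp2 spans from 0.450 CPM in WT to 222 in Veh.

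All 3 ligands rose. Tgfb1 was at 13.3, 17.2, 17.9, 19.5 and 10.1 CPM in the 5 WT mice, and at 92.8 in the lowest, 102 in the median and 122 in the highest of the 6 Veh mice. The Veh mice all stood far above the highest WT mouse, and within WT mouse 5 was the lowest. Tgfb1 was 6.72-fold higher in Veh (log2 fold change 2.75 ± 0.16 SE, adjusted p = 9.82e-12).

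Tgfb2, a ligand best known from organ development, was near the lower end of detection in WT at 1.07, 2.05, 2.07, 1.06 and 1.01 CPM, from 24 to 50 counts per library. In Veh its lowest, median and highest values were 7.04, 11.7 and 15.8 CPM. Tgfb2 was 8.23-fold higher (log2 3.04 ± 0.26, adjusted p = 1.57e-09). Tgfb3 had 2.76, 3.24, 2.79, 3.97 and 2.47 CPM in WT, and 14.8, 20.01 and 21.7 CPM as lowest, median and highest in Veh. Tgfb3 was 6.17-fold higher (log2 2.63 ± 0.14, adjusted p = 6.81e-12). Mouse 4 of the Veh group was the lowest for both Tgfb2 and Tgfb3, and still above every WT mouse. Veh mice 1, 2 and 3, with the high adipocyte markers, were the highest for Tgfb2 at 14.9, 15.8 and 12.01 CPM, and without the 4 libraries its log2 difference was 2.75.

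The 2 signalling receptors rose less than the ligands. Tgfbr1, the type I receptor kinase, lay between 45.4 and 51.8 CPM in WT and between 99.3 and 122 in Veh, with medians of 46.9 and 107. It was 2.27-fold higher (log2 1.18 ± 0.07, adjusted p = 2.98e-11). Tgfbr2, the ligand-binding type II receptor, lay between 70.1 and 97.1 CPM in WT and between 198 and 221.3 in Veh, and was 2.44-fold higher (log2 1.29 ± 0.10, adjusted p = 4.57e-10). Both groups were narrow for both receptors, and the gap between the groups was wider than either group's range.

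The co-receptor Tgfbr3 did not pass the test. It was at 19.9999, 23.7, 27.7, 26.9 and 20.3 CPM in WT and at 23.7, 26.4 and 31.1 CPM as lowest, median and highest in Veh. The groups overlapped, and the log2 difference was 0.18 ± 0.10 (adjusted p = 0.135). This call depended on the scale: with library totals alone the log2 difference was 0.76 (adjusted p = 2.38e-05), and with upper-quartile scaling 0.29 (adjusted p = 0.0233). On either scale Tgfbr3 fell behind the other receptors, from 12.8% ± 1.07 of the summed receptor FPKM in WT to 6.50% ± 0.600 in Veh.

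The latent binders rose unequally. Ltbp2, a matrix protein that associates with elastic microfibrils and, unlike its relatives, does not bind latent TGF-β, was at 0.802, 0.861, 0.591, 0.450 and 0.587 CPM in WT, from 11 to 21 counts per library. In the 6 Veh mice it was at 175, 141, 222, 99.9, 196 and 131 CPM. It was 243-fold higher (log2 7.93 ± 0.34, adjusted p = 5.57e-13), the largest difference among the 10 genes. The size depended on the scale, from log2 4.91 with limma on FPKM divided by TMM factors plus 1, which understates low genes, to 8.52 with library totals alone. D030025P21Rik, an antisense gene that shares 764 exon bases with Ltbp2, had means of 0 CPM in WT and 0.884 in Veh, and strand use in counting is not given in the sources used here.

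Ltbp3, which tethers latent TGF-β in bone and vessel walls, had 31.7, 44.3, 39.2, 41.5 and 34.8 CPM in WT and 88.4, 139.5 and 149 CPM as lowest, median and highest in Veh. It was 3.40-fold higher (log2 1.77 ± 0.15, adjusted p = 1.18e-09).

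Ltbp1, the founding latent binder, had 7.39, 15.7, 21.7, 19.3 and 9.27 CPM in WT and 23.003, 26.5 and 38.4 CPM as lowest, median and highest in Veh. Ltbp4, the latent binder with a preference for the TGF-β encoded by Tgfb1, had 62.0, 78.6, 83.3, 73.8 and 36.5 CPM in WT and 105, 121 and 157 CPM in Veh. Mice 1 and 5 were the lowest of the WT group for both genes, and the gap from the highest WT to the lowest Veh mouse was small for Ltbp1. Ltbp1 was 1.96-fold higher in Veh (log2 0.97 ± 0.24, adjusted p = 0.00134), and Ltbp4 1.87-fold higher (log2 0.90 ± 0.16, adjusted p = 2.86e-05). WT mouse 5 also had the lowest summed endothelial markers (86.4 CPM against 164 to 244 in the other WT mice) and fibroblast markers (47.6 CPM against 69.0 to 112), and their part in the result was not tested. Without this mouse the log2 difference of Ltbp4 was 0.74.

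**Figure D2:**
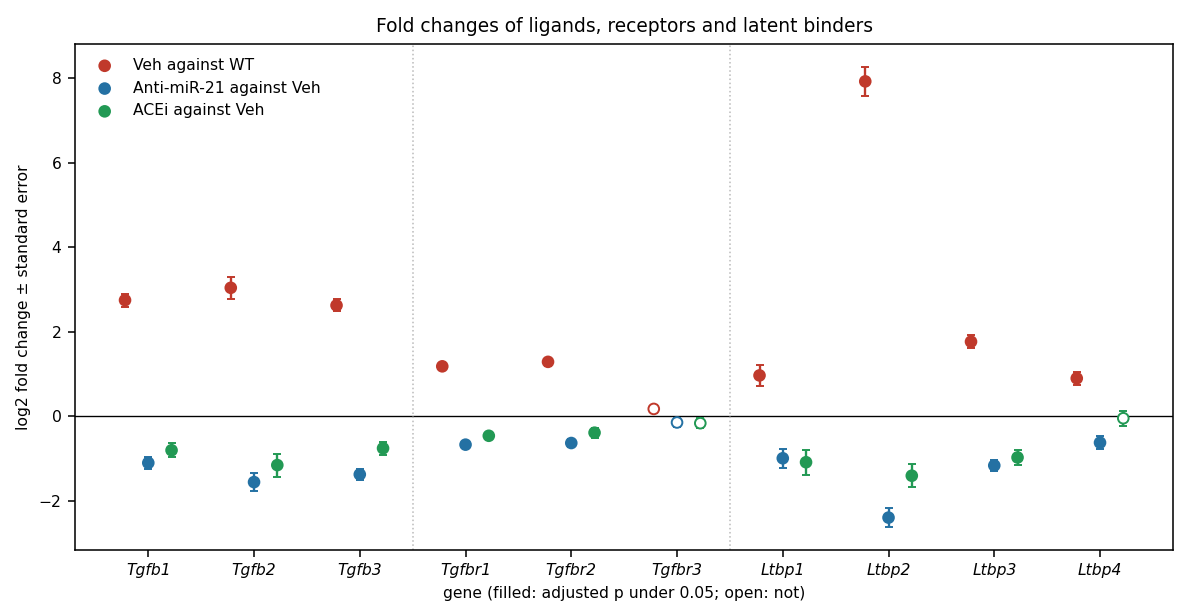
Log2 fold change ± SE of each gene in 3 comparisons from edgeR, filled where the adjusted p was under 0.05; dotted lines part ligands, receptors and latent binders. Ltbp2 is the highest point at 7.93 in Veh against WT, Tgfbr3 is open in all 3 comparisons, and Ltbp4 is open for ACEi against Veh only.

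The make-up of the latent binder class changed with these unequal rises. Ltbp2 is in this class by name, although it does not bind latent TGF-β. On the FPKM scale Ltbp4 made up 56.7% ± 6.00 of the class in WT, Ltbp3 33.5% ± 5.97, Ltbp1 9.16% ± 2.47 and Ltbp2 0.629% ± 0.213. In Veh the largest share was that of Ltbp2 at 38.2% ± 7.04, followed by Ltbp3 at 28.7% ± 2.17, Ltbp4 at 28.2% ± 4.98 and Ltbp1 at 4.92% ± 1.39. The share of Ltbp2 lay between 0.375% and 0.869% in WT and between 29.8% and 47.5% in Veh, without overlap. In contrast, Tgfb1 held 86.2% ± 1.28 of the ligand FPKM in WT and 86.5% ± 1.63 in Veh. These shares are descriptions, with no test, and the entries of Ltbp2 and Ltbp3 are among those marked as confounded.

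**Figure D3:**
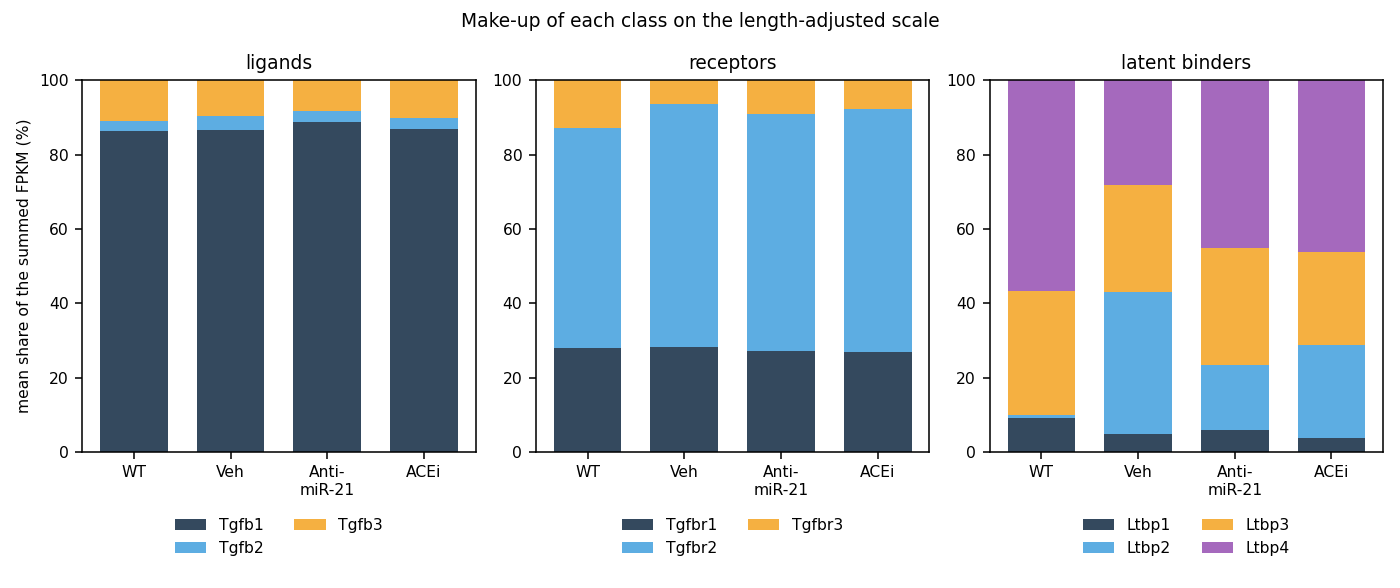
Mean share of each gene in the summed FPKM of its class, in percent, for the 4 groups (WT n = 5, Veh n = 6, Anti-miR-21 n = 6, ACEi n = 3). Ltbp2 is among the latent binders by name, although it does not bind latent TGF-β. The ligand bars are nearly alike between groups, while Ltbp2 goes from 0.629% of the latent binders in WT to 38.2% in Veh, 17.5% in Anti-miR-21 and 24.9% in ACEi.

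The second comparison, Anti-miR-21 against Veh, shows what differed with miR-21 inhibition. Of the 10 genes 9 fell and 0 rose, where 30.5% of all tested genes were called lower and 28.8% higher (55.96% and 13.95% with library totals alone). For all 9 the groups did not overlap, which held in this direction for 17.9% of tested genes. The median log2 fold change over the 10 genes was -1.05, and over all tested genes -0.04. This comparison and that of ACEi with Veh share the same 6 Veh mice, as does Veh against WT, so the level in these mice enters each of them.

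Ltbp2 fell most. It was at 37.1, 49.2, 32.3, 26.2, 22.1 and 16.2 CPM in the 6 treated mice, where the lowest Veh mouse had 99.9. Its level was 5.26-fold lower than in Veh (log2 -2.40 ± 0.22, adjusted p = 5.68e-08). Among the treated mice, mouse 2 was the highest and mouse 6 the lowest for Ltbp2.

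All ligands fell with treatment. Tgfb1 lay between 37.8 and 63.7 CPM with a median of 48.8, and was 2.14-fold lower than in Veh (log2 -1.10 ± 0.14, adjusted p = 1.12e-06). Tgfb2 lay between 3.10 and 6.53 CPM with a median of 3.57, and was 2.94-fold lower (log2 -1.56 ± 0.22, adjusted p = 4.80e-06). Tgfb3 lay between 5.98 and 8.68 CPM with a median of 7.43, and was 2.59-fold lower (log2 -1.37 ± 0.12, adjusted p = 5.57e-08). The highest Anti-miR-21 mouse was the same for all 3 ligands, mouse 2.

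Tgfbr1 and Tgfbr2, whose 3′ UTRs hold the seed match shown above, fell as well. Tgfbr1 lay between 57.6 and 75.1 CPM, 1.59-fold lower than Veh (log2 -0.67 ± 0.07, adjusted p = 1.35e-07). Tgfbr2 lay between 114 and 158 CPM, 1.55-fold lower (log2 -0.63 ± 0.09, adjusted p = 8.63e-06). The 6 mice formed a high and a low set for Tgfbr2. Mice 1, 2 and 3 were at 157, 158 and 150.0 CPM and mice 4, 5 and 6 at 114, 119.9 and 116. Mice 1, 2 and 3 also lay above mice 4, 5 and 6 for Tgfb1, Tgfb2, Tgfbr1, Ltbp2, Ltbp3 and Ltbp4. For Tgfb3, Tgfbr3 and Ltbp1 the sets overlapped. Summed macrophage markers were 461, 518 and 452 CPM in mice 1, 2 and 3, and 363, 343 and 341 in the others. Proximal tubule markers were lower in mice 1, 2 and 3, and endothelial markers overlapped. Tgfbr3 lay between 19.4 and 29.1 CPM and overlapped Veh, with a log2 difference of -0.14 ± 0.10 (adjusted p = 0.217); with library totals alone it was -0.48 (adjusted p = 0.00194).

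Ltbp1 lay between 8.92 and 21.7 CPM with a median of 14.3, and was 1.99-fold lower than in Veh (log2 -0.99 ± 0.23, adjusted p = 9.42e-04). Ltbp3 lay between 43.0 and 71.2 CPM with a median of 59.8, and was 2.24-fold lower (log2 -1.16 ± 0.13, adjusted p = 5.24e-07). Ltbp4 lay between 71.5 and 91.1 CPM with a median of 82.1, and was 1.54-fold lower (log2 -0.62 ± 0.15, adjusted p = 0.00110). Each latent binder thus lay below the lowest Veh mouse in all 6 treated mice.

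The third comparison, ACEi against Veh, rests on 3 treated mice. Of the 10 genes 8 fell and 0 rose, where 19.1% of all tested genes were called lower and 40.1% in either direction (with library totals alone 41.9% were lower and 10.8% higher), and for these 8 the groups did not overlap, as for 18.8% of tested genes in this direction. The median log2 fold change over the 10 genes was -0.78, and over all tested genes -0.05. Within the smaller flow cell alone, with 2 ACEi and 2 Veh mice, all 10 values kept their sign but only Tgfbr1 and Ltbp2 passed the test.

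Ltbp2 was at 61.8, 57.8 and 62.5 CPM in the ACEi mice and 2.65-fold lower than in Veh (log2 -1.40 ± 0.27, adjusted p = 4.38e-04). Tgfb1 was at 54.7, 64.8 and 61.3 CPM, 1.74-fold lower (log2 -0.80 ± 0.17, adjusted p = 0.00100). Tgfb2 was at 5.58, 5.08 and 5.52 CPM, 2.22-fold lower (log2 -1.15 ± 0.27, adjusted p = 0.00234), and without the 4 libraries with high adipocyte markers its call was lost (log2 -0.83, adjusted p = 0.0525). These 3 mice lay close together for each gene, and all were below the lowest Veh mouse.

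Tgfb3 was at 10.8, 11.7 and 11.0 CPM, 1.69-fold lower (log2 -0.75 ± 0.15, adjusted p = 7.09e-04). Tgfbr1 was at 77.4, 76.2 and 82.3 CPM, 1.37-fold lower (log2 -0.46 ± 0.08, adjusted p = 3.01e-04). Tgfbr2 was at 167, 154 and 161 CPM, 1.31-fold lower (log2 -0.39 ± 0.11, adjusted p = 0.0114). The Tgfbr2 call was lost without ACEi mouse 2, with an adjusted p of 0.0658. Tgfbr3 was at 26.01, 22.7 and 23.3 CPM, within the Veh range or just under it (log2 -0.16 ± 0.12, adjusted p = 0.307), and with library totals alone the log2 difference was -0.43 (adjusted p = 0.0240).

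The latent binders split under ACEi. Ltbp1 was at 14.9, 12.2 and 13.4 CPM, 2.12-fold lower than in Veh (log2 -1.09 ± 0.29, adjusted p = 0.00598). Ltbp3 was at 75.99, 60.0 and 63.2 CPM, 1.96-fold lower (log2 -0.97 ± 0.17, adjusted p = 1.81e-04). Ltbp4 was at 123, 129.8 and 110.1 CPM, inside the Veh range of 105 to 157, with a log2 difference of -0.04 ± 0.18 (adjusted p = 0.865) whose sign turned when single mice were left out. Ltbp4 is thus the gene that was called lower with Anti-miR-21 and not with ACEi, and that difference needs its own test.

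The direct comparison of the treatments called 0 of the 10 genes in edgeR's quasi-likelihood test, where 0.584% of all tested genes were called. An unadjusted p under 0.05 was found for 5 of the 10 and for 14.5% of all tested genes, and DESeq2 called 2 of the 10 and 2.48% of all. Ltbp4 had a log2 difference of -0.58 ± 0.18 (adjusted p = 0.133, unadjusted p = 0.00361), and all 6 Anti-miR-21 mice lay below all 3 ACEi mice. In a fit of only the groups compared its adjusted p was 0.0137. Tgfb3 had a log2 difference of -0.62 ± 0.15 (adjusted p = 0.0580) and Ltbp2 one of -0.99 ± 0.25 (adjusted p = 0.0682), and these were the 2 genes that DESeq2 called, with adjusted p of 0.0102 and 0.0171. Tgfbr1 also did not overlap (log2 -0.21 ± 0.08, adjusted p = 0.251), so 4 of the 10 genes were lower in every Anti-miR-21 mouse than in every ACEi mouse, as were 4.80% of tested genes. For Tgfb1, Tgfb2, Tgfbr2, Tgfbr3, Ltbp1 and Ltbp3 the groups overlapped, and the log2 differences ran from -0.40 to 0.09. A difference that missed the threshold with 6 and 3 mice does not show that the treatments act alike.

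Against WT, neither treatment group matched the untreated level for all genes. In Anti-miR-21 mice 7 of the 10 genes were called higher than in WT (23.9% of tested genes), and in ACEi mice 8 of 10 (25.2%). In both groups 0 were lower than in WT, where 19.8% of tested genes were called lower for Anti-miR-21 and 22.5% for ACEi. Ltbp2 stayed farthest from WT, 46.2-fold higher in Anti-miR-21 (log2 5.53 ± 0.33, adjusted p = 2.77e-10) and 91.8-fold higher in ACEi (log2 6.52 ± 0.35, adjusted p = 1.09e-10). Tgfb1 was 3.14-fold higher in Anti-miR-21 (log2 1.65 ± 0.15, adjusted p = 4.46e-08) and 3.86-fold higher in ACEi (log2 1.95 ± 0.17, adjusted p = 1.92e-08). Ltbp1 overlapped WT in Anti-miR-21 (log2 -0.02 ± 0.24, adjusted p = 0.947) and in ACEi (log2 -0.12 ± 0.29, adjusted p = 0.772), and WT mice varied from 7.39 to 21.7 CPM for it. Ltbp4 was not called in Anti-miR-21 (log2 0.28 ± 0.15, adjusted p = 0.152), though with library totals alone it was (log2 0.53, adjusted p = 0.0164), as in limma on log2(FPKM + 1) and log2(FPKM + 0.1). It was 1.81-fold higher than WT in ACEi (log2 0.86 ± 0.18, adjusted p = 7.08e-04).

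Expressed as a share of the log2 difference between Veh and WT, the return toward WT varied between genes, with Tgfbr3 left out because it was not called in Veh. For Anti-miR-21 the share was 30.2% for Ltbp2, 40.0% for Tgfb1, 51.1% for Tgfb2, 52.3% for Tgfb3, 56.5% for Tgfbr1, 48.9% for Tgfbr2, 65.8% for Ltbp3, 69.1% for Ltbp4 and 102% for Ltbp1. For ACEi it was 17.7% for Ltbp2, 29.2% for Tgfb1, 37.9% for Tgfb2, 28.7% for Tgfb3, 38.8% for Tgfbr1, 29.9% for Tgfbr2, 55.0% for Ltbp3, 4.95% for Ltbp4 and 112% for Ltbp1. The ACEi share of Ltbp4 was 2.75% without a filter on low counts and 13.1% without the 4 libraries with high adipocyte markers. With library totals alone it was 21.7%, and Ltbp2 was then the smallest at 19.8%. Ltbp2, with the largest rise in disease, had the smallest share under Anti-miR-21 in these counts, but in limma on log2(FPKM + 1) Tgfb1 was smaller, at 44.9% against 49.4% for Ltbp2, so the order depended on the unit and pseudocount. The order also depended on the log scale. In mean CPM Ltbp2 was at 161 in Veh, 30.5 in Anti-miR-21 and 0.658 in WT, and Tgfb1 at 105, 49.0 and 15.6. Without logs Ltbp2 thus made up more of its difference from WT than Tgfb1. These shares divide by a difference that uses the same Veh mice, so they are given as a description.

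The other genes of the pathway were read from 6 lists of known function, which were chosen with earlier results of these data known. Of 14 genes that activate or anchor latent TGF-β, 11 were higher and 3 lower in Veh than in WT. Of all tested genes 39.0% were called higher and 34.0% lower. Fbn2, a microfibril protein of the scaffold that holds latent complexes, rose from 0.0673 ± 0.106 to 8.73 ± 1.93 CPM (SD; log2 6.93 ± 0.46 SE, adjusted p = 6.11e-11), and Mmp2, a protease that can release TGF-β, from 6.83 ± 1.49 to 129 ± 22.1 CPM (log2 4.24 ± 0.22, adjusted p = 3.02e-12). The genes with the largest falls were Itgb8, whose integrin activates TGF-β, from 104 ± 12.9 to 53.9 ± 9.95 CPM (log2 -0.94 ± 0.11, adjusted p = 1.94e-07), and Furin, the convertase that cuts the pro-protein, from 416 ± 27.1 to 233 ± 19.1 CPM (log2 -0.84 ± 0.08, adjusted p = 6.07e-09). The list's median log2 fold change was 2.42, against 0.07 for all genes. With library totals alone 12 were higher and 2 lower, where 66.0% and 15.2% of all tested genes were. The third gene, Itgb6, went from a log2 difference of -0.37 to 0.21 and was called on both scales. Itgb6 is named here after its values were seen.

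With Anti-miR-21, 11 of the 14 genes fell and 3 rose against Veh, and with ACEi 10 fell and 2 rose. With library totals alone 11 fell and 1 rose with Anti-miR-21, and 10 fell and 1 rose with ACEi, the rise in both being Itgb8. Of all tested genes 55.96% then fell and 13.95% rose with Anti-miR-21, and 41.9% fell and 10.8% rose with ACEi. Furin was then not called with either treatment (log2 0.0046 and 0.09). Fbn2 fell with Anti-miR-21 (log2 -1.52 ± 0.26, adjusted p = 5.23e-05) and had a log2 difference of -0.44 ± 0.31 with ACEi (adjusted p = 0.283). Itgb8 rose by 0.93 ± 0.11 with Anti-miR-21 (adjusted p = 5.18e-07) and by 0.75 ± 0.13 with ACEi (adjusted p = 1.38e-04) on the log2 scale. In the direct comparison of treatments 1 of the 14 was called, where 0.584% of all tested genes were. This was Mmp9, at a log2 difference of -0.94 ± 0.21 (adjusted p = 0.0406), named here after its value was seen.

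The other receptors of the family rose in disease. Eng (endoglin), an endothelial co-receptor, was 1.83-fold higher in Veh than in WT (log2 0.87 ± 0.13, adjusted p = 7.18e-06), and Acvrl1, its type I receptor partner, 2.19-fold higher (log2 1.13 ± 0.10, adjusted p = 2.02e-09). Both fell with Anti-miR-21, by 0.38 ± 0.13 (adjusted p = 0.0133) and 0.48 ± 0.09 (adjusted p = 1.43e-04) on the log2 scale, and with ACEi their log2 differences were -0.14 ± 0.16 and -0.20 ± 0.11, with neither called. With library totals alone both were called lower with ACEi (log2 -0.42 and -0.48, adjusted p = 0.0452 and 0.00873).

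Among the 4 genes of the Smad step, Smad3 rose by 0.80 ± 0.08, Smad2 by 0.41 ± 0.07 and the shared partner Smad4 by 0.21 ± 0.07 on the log2 scale in Veh against WT (adjusted p = 1.13e-08, 4.59e-05 and 0.0150). Zfyve9, which anchors Smads for the receptor, fell by 0.39 ± 0.06 (adjusted p = 7.39e-06). Smad3 and Smad2 fell with both treatments, Smad3 by 0.58 with Anti-miR-21 and by 0.46 with ACEi. Smad4 had differences of -0.10 and -0.02, with neither called, but with library totals alone it was called lower with both (log2 -0.44 and -0.29), and with upper-quartile scaling with Anti-miR-21 (adjusted p = 0.0326). The fall of Zfyve9 depended on the scale, since with library totals alone it was called higher in Veh (log2 0.19). With library totals alone all 4 genes were called lower with ACEi, as were 41.9% of all tested genes.

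Of 9 negative regulators, 7 rose and 2 fell in Veh, where 39.0% of all tested genes were called higher and 34.0% lower. With library totals alone 8 were called higher and 0 lower, where 66.0% and 15.2% of all tested genes were. Pmepa1, which sequesters Smads, rose by 2.05 ± 0.12 (adjusted p = 8.96e-12) and Tgif1, a co-repressor, by 1.83 ± 0.12 (adjusted p = 4.14e-11) on the log2 scale. The phosphatase gene Ppm1a fell by 0.48 ± 0.06 and the ubiquitin ligase gene Smurf2 by 0.44 ± 0.06 on the TMM scale, but with library totals alone both differences turned positive (log2 0.10 and 0.14). With Anti-miR-21 7 fell and 2 rose, and with ACEi 4 fell and 2 rose, the same pair, Ppm1a and Smurf2, in both. With library totals alone neither of the pair was called in a treated group, and 7 of the 9 fell with Anti-miR-21 and 6 with ACEi. Of all tested genes 55.96% were then called lower with Anti-miR-21 and 41.9% with ACEi. With upper-quartile scaling 5 fell and 1 rose with ACEi. Of 4 matrix proteoglycans that bind TGF-β, 2 rose in Veh, Bgn from 236 ± 70.7 to 1572 ± 86.9 CPM (log2 2.74 ± 0.18, adjusted p = 7.70e-11) and Dcn (log2 1.68 ± 0.18, adjusted p = 5.30e-08), while Fmod (log2 0.30) and Aspn (log2 0.11) were not called on the TMM scale. With library totals alone both were called higher, and with upper-quartile scaling Fmod was (adjusted p = 0.0457). Dcn had a log2 difference of 0.04 ± 0.17 between Anti-miR-21 and Veh (adjusted p = 0.852), whereas Bgn fell by 0.96 ± 0.16 (adjusted p = 4.36e-05). Fmod was also called lower (log2 -0.44, adjusted p = 0.0309), and Aspn was not called (log2 0.17). With ACEi only Bgn was called lower (log2 -0.54, adjusted p = 0.0389). Dcn, Aspn and Fmod then had log2 differences of -0.46, -0.48 and -0.0067. With library totals alone 3 of the 4 were called lower with ACEi.

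All 15 genes of a list of transcripts known to be induced by TGF-β rose in Veh. Their log2 fold changes lay between 1.39 and 7.35, with a median of 3.28. Of all tested genes 39.0% were called higher. Timp1, an inhibitor of matrix proteases, rose by 7.35 ± 0.35 (adjusted p = 1.31e-12) on the log2 scale. With Anti-miR-21 all 15 fell, with a median of -1.60, where 30.5% of all tested genes were called lower. With ACEi 14 fell, with a median of -1.02, where 19.1% were called lower. The exception was Ccn2, named after its value was seen (log2 -0.41 ± 0.22, adjusted p = 0.144). Ccn2 was called lower with library totals alone (log2 -0.69, adjusted p = 0.0220). In the direct comparison of treatments 0 of the 15 were called, where 0.584% of all tested genes were. Because the list was chosen with earlier results of these data known, its counts are a description. Many of these genes are products of matrix-making cells, whose markers are given below.

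**Figure D4:**
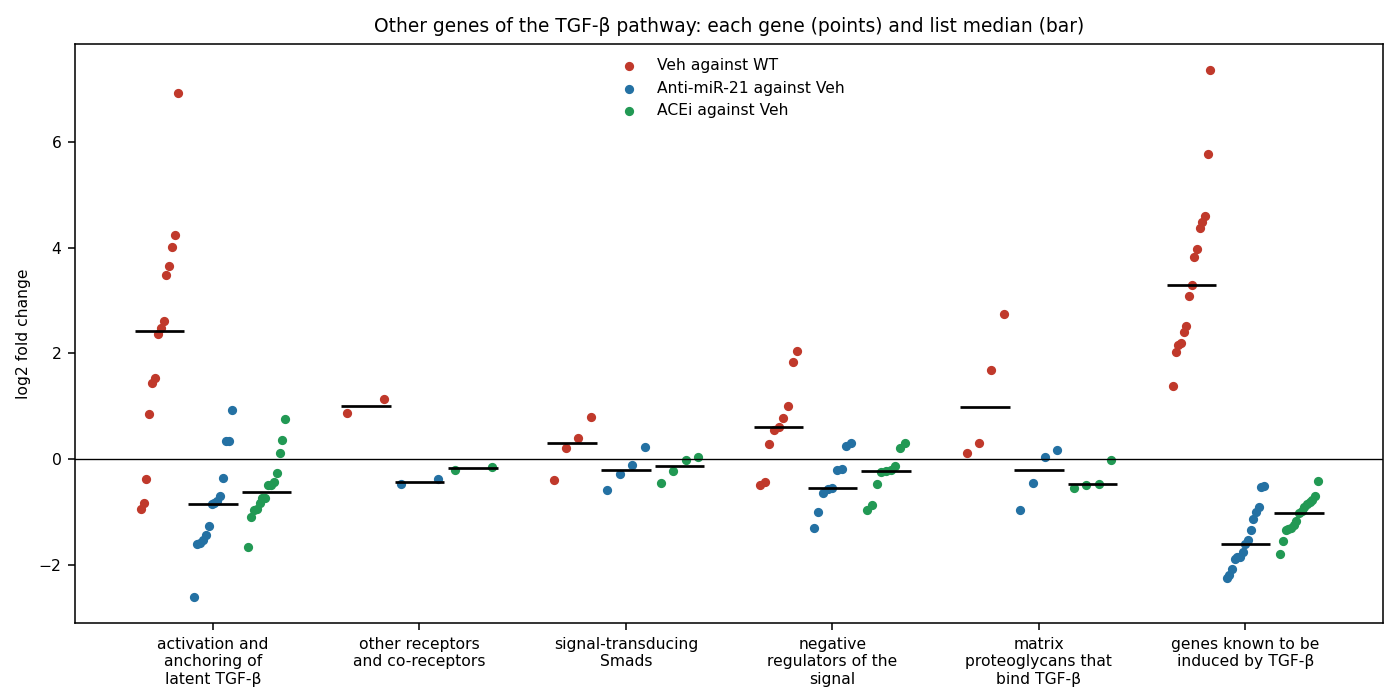
Log2 fold change of each tested gene in 6 lists of the TGF-β pathway (points) with the list median (black bar) for 3 comparisons. The lists were chosen with earlier results of these data known. The median of the genes known to be induced by TGF-β is 3.28 in Veh against WT, -1.60 in Anti-miR-21 against Veh and -1.02 in ACEi against Veh.

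Markers of several cell types moved with these groups. The 6 macrophage markers summed to between 139.6 and 154 CPM in WT, 817 and 998 in Veh, 341 and 518 in Anti-miR-21 and 449.5 and 532 in ACEi, and all 6 were called higher in Veh than in WT. The 5 fibroblast markers summed to between 47.6 and 112 CPM in WT, 323 and 457 in Veh, 142 and 249 in Anti-miR-21 and 236 and 251 in ACEi. Against Veh, all 5 were called lower with Anti-miR-21 and 2 with ACEi. The 5 proximal tubule markers summed to between 10701 and 14039.6 CPM in WT, 1529 and 3755 in Veh, 6033 and 10003 in Anti-miR-21 and 6156 and 8108 in ACEi. The 4 markers of tubule injury summed to 27.6 ± 5.16 CPM (SD) in WT, 1028 ± 191 in Veh, 408 ± 108 in Anti-miR-21 and 576 ± 43.1 in ACEi. Against Veh, 3 of these 4 were called lower with Anti-miR-21. With ACEi 1 was, and the 4 log2 differences ran from -2.27 to -0.13, with a median of -0.34. T cell markers went from 2.49 ± 0.369 CPM in WT to 21.2 ± 8.51 in Veh, with 11.2 ± 3.12 in Anti-miR-21 and 17.4 ± 4.24 in ACEi. Against Veh, 4 of the 5 T cell markers were called lower with Anti-miR-21 and 0 with ACEi. These calls rest on 6 and 3 treated mice, and 30.5% and 19.1% of all tested genes were called lower. In the direct comparison of treatments 0 of the 5 fibroblast, 0 of the 4 tubule injury and 0 of the 5 T cell markers were called. There 1 of the 6 macrophage markers was called, and 0.584% of all tested genes. Distal tubule markers went from 1014 ± 163 CPM in WT to 306 ± 57.9 in Veh, with 655 ± 61.2 in Anti-miR-21 and 516 ± 40.97 in ACEi. The sums of the 5 endothelial markers, at 86.4 to 244 CPM in WT and 199 to 253 in Veh, overlapped. Of these markers 2 were called higher in Veh, 1 lower and 2 not. Markers of platelets, a source rich in Tgfb1, summed to between 9.40 and 14.6 CPM in WT and 7.67 and 10.4 in Veh. Only 1 of the 4 reached a mean of 1 CPM in WT. Of the 3 that were tested, 1 was called higher in Veh (log2 2.92), 1 lower (log2 -1.19) and 1 not. The part of these cell types in the results above was not tested.

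Over the 20 mice the levels of the 10 genes followed each other, mainly through the group differences. Pearson's r of log2 CPM ran from 0.32 (Tgfbr3 with Ltbp2) to 0.98 (Tgfb1 with Tgfb3) over the 45 pairs, with a median of 0.85. After each group's mean was taken off, r ran from -0.18 (Tgfbr1 with Ltbp4) to 0.91 (Tgfbr3 with Ltbp1), with a median of 0.48. Tgfbr3 and Ltbp1 were both low in WT mice 1 and 5 and in Anti-miR-21 mouse 4, and both high in Veh mouse 2 and Anti-miR-21 mouse 1. The mice share library preparation and scaling, and these values are given as descriptions.

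Among 13163 genes whose mean log2 CPM was 1 or more, those most like each of the 10 genes over the 20 mice were ranked by Pearson's r of log2 CPM. Tgfb1 was most like Tuba1a, Tmsb10 and Efemp2 (r = 0.99 each), Tgfb2 like Speg, Sspn and Lxn (0.98 each), and Tgfb3 like Des, Tubb5 and Frk (0.99 each). Tgfbr1 was most like Tcirg1, Ccr1 and Colgalt1 (0.98 each), and Tgfbr2 like Smoc2, Col3a1 and Kctd10 (0.99 each). Ltbp2 was most like Fcgr1, Lrrc25 and Laptm5 (0.99 each), Ltbp3 like Ptprs, Col16a1 and Arhgef25 (0.98 each) and Ltbp4 like Atp1b2 (0.95), Lama2 (0.94) and Ust (0.94). Ltbp1 was most like Lepr (0.96), Wnt5a (0.94) and Apcdd1 (0.94). Tgfbr3, with the flattest pattern, was most like Ltbp1 (0.85), Lepr (0.82) and Srgap3 (0.80).

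In the GENCODE M21 annotation (GRCm38) the 10 genes lie apart from each other except that Tgfb1 and Ltbp4 are both on chromosome 7 and Tgfb3 and Ltbp2 both on chromosome 12. Tgfb1 spans chr7:25687002-25705077 and Ltbp4 chr7:27305136-27337692, Tgfb3 spans chr12:86056745-86079041 and Ltbp2 chr12:84783212-84876532. The other 6 are at chr1:186622792-186705989 (Tgfb2), chr4:47353222-47414931 (Tgfbr1), chr9:116084293-116175360 (Tgfbr2), chr5:107106570-107289629 (Tgfbr3), chr17:75005568-75392512 (Ltbp1) and chr19:5740904-5758532 (Ltbp3). Tgfb1 and Ltbp4, both on chromosome 7, rose 6.72-fold and 1.87-fold in Veh, and Tgfb3 and Ltbp2, both on chromosome 12, rose 6.17-fold and 243-fold.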

How the data were processed

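Whole-kidney total RNA of 20 mice was sequenced (Illumina HiSeq 2000, paired-end reads of 100 bases). The authors aligned reads with the OmicSoft aligner to GRCm38 and deposited, for each Ensembl gene and library, an estimated count that was not normalized. The authors also deposited FPKM values, normalized for length and library total. The study's methods name Ensembl gene models, whereas the annotation deposited with the FPKM table lists mostly UCSC genes. A deposited library table gives a count of alignments per library, between 70004591 and 73294858. Strand use in counting is not given in the sources used here. The FPKM table holds 3 columns that matched no mouse of these groups, and they were not used.

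Of the positive estimated counts 28.2% were not whole, so counts were rounded. Genes were filtered with filterByExpr (minimum count 10, minimum total 15) and scaled with TMM. The test was edgeR's quasi-likelihood F-test (edgeR 4.0.16, R 4.3.3) in 1 fit of the 20 mice with a term for each group, and p-values were adjusted over 17622 genes by the Benjamini-Hochberg method. log2 CPM used a prior count of 2. A standard error is the log2 fold change divided by the square root of the test's F. FPKM served only for levels between genes and as an alternative in limma 3.58.1 with pseudocounts of 1 and 0.1. DESeq2 1.42.0 was a second test. Each library carries its own mouse name, so p-values measure the spread between mice. The test was run on simulated counts, where 97 of 100 genes changed by 1 on the log2 scale were called. Of 100 genes changed by 0.5 it called 23, and of 16895 unchanged genes 7. Few genes were changed there, as many up as down, so this check cannot bear on the TMM assumption.

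The 10 genes, the pathway lists and the marker lists were chosen with earlier results of these data known. Named genes were the 10 members, Col4a3 as a check of the labels, from each pathway list at most 4 genes (the 2 largest positive and 2 largest negative differences among those called in Veh against WT, or the whole list where it has 4 or fewer), each marker list as a sum, and for each member the 3 genes with the highest Pearson r among genes whose mean log2 CPM was 1 or more. Of the genes this rule names, 1 is not reported here. The alternatives were the test, scaling, filter, unit and pseudocount, flow cell, samples in the fit and each mouse left out. FPKM divided by TMM factors, the smaller flow cell alone and the 16 mice under 50 CPM of adipocyte markers were chosen after seeing the data. Plots used Python 3.11.15 and matplotlib 3.10.9.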

Additional observations from a re-analysis of the deposited data

Results flagged for a closer look

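Dixon's test of the 10 genes in WT, Veh and Anti-miR-21 (5, 6 and 6 mice) found no mouse that stood apart from its group in the 30 tests run. The 3 ACEi mice were too few to be tested.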

How the results depend on the processing

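Of the alternative counts of the 10 genes called over the 6 comparisons, 139 stayed within 1.5 times the value reported and 5 did not. Against Veh, ACEi gave 2 called genes instead of 8 in the smaller flow cell alone, where fewer mice remained. For Anti-miR-21 against ACEi the count of 0 became 2 with DESeq2, 1 with at least 10 counts in every mouse and 1 with only the groups compared, and ranged from 0 to 2 as single mice were left out, being 2 without Anti-miR-21 mouse 2 (Tgfb3 and Ltbp2). The cause was not tested. Apart from DESeq2 and library totals alone, the shares of all tested genes called in these alternatives are not given here. Among the alternative fold changes of single genes 1366 kept direction and side of the threshold, 23 newly passed, 8 no longer passed and 43 changed sign, the last all for values that were not called. Sizes of low genes moved without a change of call: in Veh against WT, Tgfb2 (3.04) was 1.36 and Tgfb3 (2.63) 1.80 with limma on FPKM divided by TMM factors plus 1, whose pseudocount shrinks them.

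These sign changes were as follows on the log2 scale. For Anti-miR-21 against ACEi, Tgfbr3 (0.02) was -0.045 with library totals, -0.047 with limma on log2(FPKM + 1) with and without the filter and -0.061 with a pseudocount of 0.1, and ran from -0.042 to 0.082 with mice left out. Ltbp1 (0.09) was -0.00088, -0.00088 and -0.020 in the same 3 limma fits and ran from -0.060 to 0.20. For Anti-miR-21 against WT, Ltbp1 (-0.02) was 0.0061 with upper-quartile scaling, 0.23 with library totals, 0.0023 without a filter, 0.019 with at least 10 counts in every mouse, 0.16, 0.16 and 0.26 with limma on FPKM and 0.0087 with FPKM divided by TMM factors, 0.11 without the 4 libraries with high adipocyte markers, and ran from -0.18 to 0.16. Tgfbr3 (0.03) ran from -0.027 to 0.093. For ACEi against WT, Tgfbr3 (0.01) was -0.0092 with DESeq2 and with its size factors in edgeR and ran from -0.040 to 0.076, and Ltbp1 (-0.12) was 0.19 with library totals and 0.16, 0.16 and 0.28 with limma on FPKM and ran from -0.28 to 0.066. For Anti-miR-21 against Veh, Tgfbr3 (-0.14) was 0.016 without those 4 libraries. For ACEi against Veh, Ltbp4 (-0.04) ran from -0.092 to 0.057.

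Flow cell as a term changed no count of called genes by over 1.5 times. ACEi has 1 library on the larger flow cell, so ACEi comparisons were not run there. No paired analysis was possible because no mouse name occurs in more than 1 group.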
